A study of Homo sapiens with 27 samples.

Results

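miR-135b is a microRNA (miRNA) made from the hairpin MIR135B, and both of its mature arms were followed here: hsa-miR-135b-5p and hsa-miR-135b-3p, 2 of the 2276 miRNAs listed in any of the deposited tables. The pair was chosen by name, after earlier results of these data had shown miR-135b-5p with a large change between USB1 mutant and wild-type (WT) stem cells. Values from those 2 groups, and every comparison that uses them, are therefore given as a description with no p-value. Small RNA was measured in 27 libraries, in 9 groups of 3. H1 is an established line of human embryonic stem cells (hESCs), and its groups were WT, cells with a USB1 mutation (USB1 mutant), mutant cells with an inducible wild-type USB1 transgene (iUSB1) without or with doxycycline (-Dox, +Dox), and mutant cells with hairpins against PAPD5 (mutant shPAPD5). All 4 groups other than WT carry the mutation. In K562, an established chronic myelogenous leukaemia line, they were control, USB1 knockout (USB1 KO), control with PARN knockdown (control shPARN) and knockout with PARN knockdown (USB1 KO shPARN).

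Per the study's methods, mutant hESCs came from manually picked colonies, the transgene and the PAPD5 hairpins were placed at the AAVS1 locus, and knockout K562 cells were expanded from single cells. None of the labels names a non-targeting hairpin, so knockdown and the introduction of a hairpin cannot be told apart. Nor do they state separate cultures for libraries of one group. The study's figure legends name biological replicates for miRNA sequencing of WT and USB1 mutant hESCs and of control and USB1 KO K562 cells. What set such replicates apart is not stated. The p-values therefore measure only the spread between these libraries, which in the other groups may be technical.

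A miRNA hairpin is cut to a short duplex, of which one strand (the guide) is usually loaded into an Argonaute protein while the other (the passenger) is mostly degraded. The loaded strand pairs with messenger RNAs through its seed, the bases near its 5′ end. miR-135b-5p is known for repressing APC, a brake on Wnt/beta-catenin signalling, and has been described in neural induction of stem cells. The enzymes perturbed here act on RNA 3′ ends: PAPD5 adds adenosines, while PARN and USB1 are 3′ exonucleases that can remove them. Counts per miRNA hold no information on tails. Messenger RNA of USB1, PAPD5 and PARN was not analysed here, so the groups rest on their labels.

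MIR135B lies on the minus strand at chr1:205448302-205448398 (GRCh38), inside introns of LEMD1 and of BLACAT1, which run on the same strand (GENCODE v44). The RefSeq hairpin is shown because both arms come from it, with the 5p arm (bases 16 to 38) and the 3p arm (bases 55 to 76) in capitals.
MIR135B hairpin: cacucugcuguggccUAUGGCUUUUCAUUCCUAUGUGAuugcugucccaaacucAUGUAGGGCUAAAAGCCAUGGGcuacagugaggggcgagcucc
The mature family is shown to make clear which members could share reads or targets, with the seed (bases 2 to 8) in capitals.
miR-135b-5p: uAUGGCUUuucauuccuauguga
miR-135a-5p: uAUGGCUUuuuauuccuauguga
miR-135b-3p: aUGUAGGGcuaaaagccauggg
miR-135a-2-3p: aUGUAGGGauggaagccaugaa
miR-135a-3p: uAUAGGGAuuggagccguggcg
Of 2370 mature miRNAs in the RefSeq table, only miR-135a-5p shared the seed of miR-135b-5p, and only miR-135a-2-3p shared that of miR-135b-3p. miR-135a-5p is made from MIR135A1 on chromosome 3 and MIR135A2 on chromosome 12. It differs from miR-135b-5p at 1 of 23 bases, C11U counted from the 5′ end, so that counts of the 2 depend on how the authors' alignment split such reads and are uncertain to that degree. miR-135b-3p differs from miR-135a-2-3p at 5 bases and from miR-135a-3p at 15. miR-135b-5p ends in A, as did 18.7% of the 889 miRNAs fitted in hESCs that matched RefSeq, and miR-135b-3p ends in G.

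Depth was 12258450 to 35734485 miRNA counts for an hESC library and 1530929 to 13183152 for a K562 library, with knockout library 3 the shallowest. Stem cell miRNAs (the miR-302, miR-367 and miR-371 to miR-373 list, 8 of 8 listed) took 178501 to 397742 counts-per-million units (CPM) of the library total in hESCs. Blood miRNAs such as miR-451a and miR-486-5p took 6608 to 11620 CPM in K562 and 93.7 to 341 in hESCs, so that each line held the markers of its label. K562 control libraries 1 and 2 also held stem cell miRNAs at 782 and 829 CPM, against 8.71 in control library 3 and at most 19.2 in the other K562 libraries, whose tables list 3 or 4 of the 8, while the range of the blood list in the control was 9088 to 11620. What part this has in K562 results was not tested. Each comparison of miR-135b within K562 that uses the control is also given without libraries 1 and 2. USB1 mutant library 1 stood apart in hESCs, with 397742 CPM of stem cell miRNAs against 235724 and 230763 in mutant libraries 2 and 3. In such bulk samples, fewer cells of a type and less RNA per cell cannot be told apart. Neural miRNAs summed to 10103 to 18363 CPM in hESCs and 12236 to 43536 in K562. For the fibroblast list the range in hESCs was 199 to 661 CPM. Where K562 comparisons use control library 3 alone, the spread comes from the other groups and the lone library is assumed to vary as they do.

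Levels from here on are CPM after TMM scaling within a line, unless given as CPM of the library total. miR-135b-5p was at 153, 184 and 174 CPM in the 3 WT libraries and at 1009.7, 370 and 327 CPM in the 3 USB1 mutant libraries. Every mutant library lay above every WT library, and mutant library 1 lay far above the other two. In iUSB1 -Dox cells the 3 libraries were at 331, 230 and 428 CPM. With doxycycline they were at 278, 296 and 379.5 CPM, within the range of the uninduced cells. In mutant shPAPD5 cells they were at 350.4, 378 and 212 CPM. By mean ± SD (n = 3) the order was USB1 mutant (569 ± 383), iUSB1 -Dox (329.7 ± 98.9), iUSB1 +Dox (318 ± 54.3), mutant shPAPD5 (314 ± 88.8) and WT (170 ± 15.9). The 4 mutation-bearing groups overlapped one another, and WT alone lay below all of them.

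The passenger arm miR-135b-3p also had its highest mean in the mutant and its lowest in WT, over a narrower range. WT libraries held 22.7, 20.8 and 22.4 CPM, and USB1 mutant libraries 40.3, 35.2 and 31.9 CPM. The iUSB1 -Dox libraries held 36.7, 25.7 and 33.5 CPM, the +Dox libraries 33.1, 32.2 and 34.6 CPM, and the mutant shPAPD5 libraries 33.8, 31.9 and 29.8 CPM. As for the 5p arm, WT lay below every other group and the rest overlapped.

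In K562, miR-135b-5p was at 103, 103 and 126 CPM in the control libraries. USB1 KO libraries held 90.4, 98.3 and 73.8 CPM, all below the control, though the highest of them lay within 1 SD of the lowest control library. PARN knockdown of control cells gave 311, 225 and 200.2 CPM, above every other K562 library. USB1 KO shPARN libraries held 77.8, 99.99 and 72.7 CPM, overlapping USB1 KO. The order of means was control shPARN (246 ± 58.2), control (111 ± 13.5), USB1 KO (87.5 ± 12.5) and USB1 KO shPARN (83.5 ± 14.5).

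miR-135b-3p was scarce in K562, with 6 to 163 counts a library. It was at 4.05, 4.27 and 6.59 CPM in the control, 3.45, 3.65 and 2.91 CPM in USB1 KO, 13.8, 11.7 and 10.3 CPM in control shPARN, and 5.89, 8.79 and 6.18 CPM in USB1 KO shPARN. Control shPARN again lay above the other groups, but USB1 KO was here the lowest and lay below USB1 KO shPARN in every library.

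**Figure D1:**
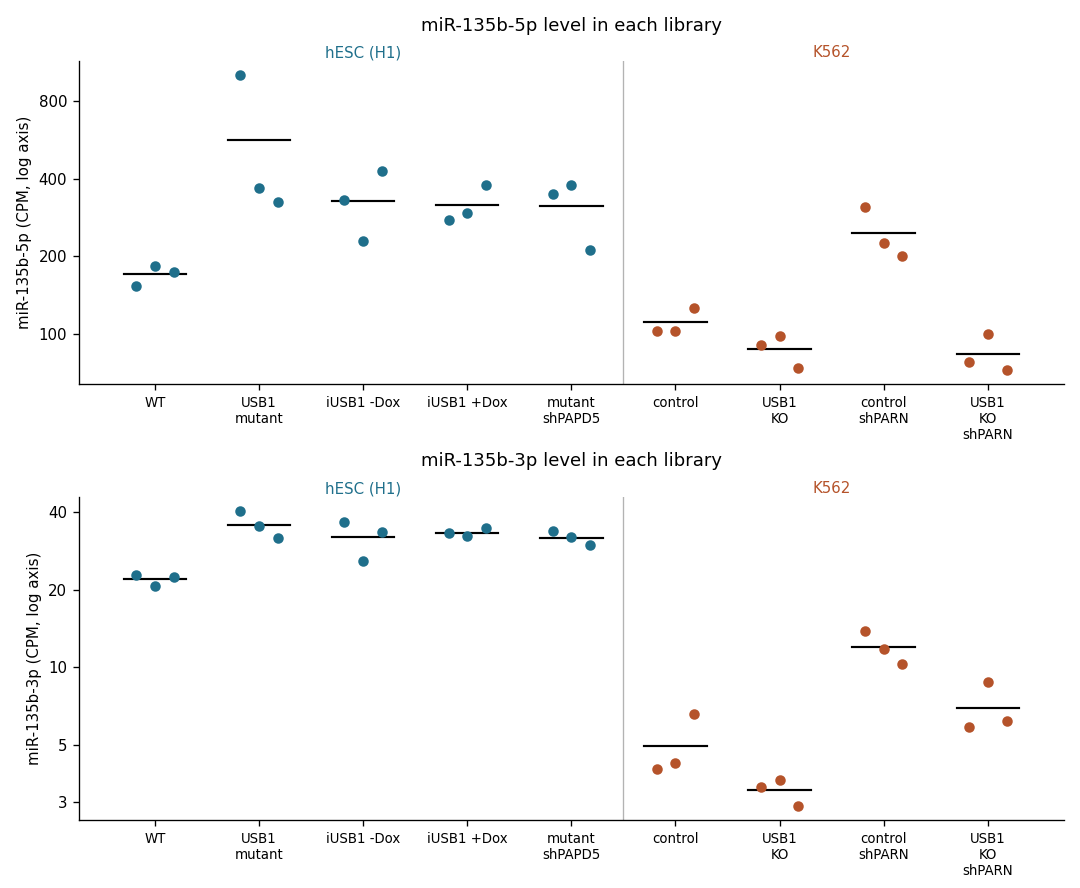
Level of miR-135b-5p (top) and miR-135b-3p (bottom) in each library, in CPM after TMM scaling within a line on log axes; points are libraries 1 to 3 from left to right and bars are group means. WT lies below the other hESC groups for both arms, and control shPARN above the other K562 groups.

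Among the fitted miRNAs of a library, miR-135b-5p ranked 45 to 137 of 998 in hESCs and 114 to 223 of 881 in K562, and miR-135b-3p 232 to 301 and 363 to 571. Between the lines, on CPM of the library total, WT hESCs held 168 ± 10.7 of miR-135b-5p and control K562 cells 118 ± 6.63. For miR-135b-3p the values were 21.8 ± 2.03 and 5.25 ± 1.13 (n = 3 each). The difference was 0.52 on the log2 scale for the 5p arm (SE 0.38) and 2.05 for the 3p arm (SE 0.26) with library totals. TMM scaling over both lines gave 1.54 (SE 0.36) and 3.05 (SE 0.28), and rested on miRNAs that held as little as 63.5% of a library's counts, so the sizes depend on the scaling.

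The comparison of USB1 mutant with WT involves no added transgene or hairpin. The labels name no edited line without the mutation, so mutation, editing and picked colony cannot be told apart. Both arms were higher in the mutant: miR-135b-5p by 1.74 on the log2 scale (SE 0.37), or 3.34-fold, and miR-135b-3p by 0.70 (SE 0.17), or 1.63-fold. All mutant libraries lay above all WT libraries for both arms, as they did for 14.3% of the 998 miRNAs fitted. Without mutant library 1 the 5p difference was 1.02 (SE 0.24). These values chose miR-135b and are not evidence for a change.

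Each of the other mutation-bearing groups also lay above WT in every library for both arms. The log2 differences of miR-135b-5p were 0.95 (SE 0.36) for iUSB1 -Dox, 0.90 (SE 0.36) for iUSB1 +Dox and 0.88 (SE 0.36) for mutant shPAPD5. For miR-135b-3p they were 0.54, 0.60 and 0.54 (SE 0.17 each). The share of all fitted miRNAs with every library above WT was 11.1% for -Dox, 15.1% for +Dox and 9.22% for mutant shPAPD5. The WT libraries are the same in all 4 comparisons, so these values are not independent of one another or of the choice of miR-135b.

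Against the USB1 mutant itself, miR-135b-5p differed by -0.79 (SE 0.36) in iUSB1 -Dox cells and by -0.86 (SE 0.36) in mutant shPAPD5 cells, with overlapping libraries in both. Both differences rested on mutant library 1: without it they were -0.07 and -0.13. The 3p arm differed from the mutant by -0.16 and -0.17 (SE 0.17 each). The 2 comparisons share the mutant libraries.

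Induction of USB1 in iUSB1 cells is one of 2 hESC comparisons whose own groups hold no library behind the choice of miR-135b. The spread behind their SE, intervals and p-values was still estimated over all 15 hESC libraries, those of WT and USB1 mutant included. Neither arm passed the test. miR-135b-5p went from 329.7 ± 98.9 to 318 ± 54.3 CPM, a log2 change of -0.05 (SE 0.36, 95% interval -0.82 to 0.71, adjusted p = 0.994 by edgeR's quasi-likelihood test). miR-135b-3p went from 32.0 ± 5.65 to 33.3 ± 1.19 CPM, a change of 0.06 (SE 0.17, 95% interval -0.30 to 0.42, adjusted p = 0.994). edgeR called 0% of the 998 miRNAs here, with 45 at an unadjusted p under 0.05, and DESeq2 called 1. Changes of the 5p arm between the bounds of its interval could not be told from the spread between libraries.

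Mutant shPAPD5 and iUSB1 +Dox cells were also compared, since each modifies the mutant in a different way. miR-135b-5p differed by -0.02 (SE 0.36, 95% interval -0.78 to 0.75, adjusted p = 0.990, edgeR) and miR-135b-3p by -0.06 (SE 0.17, 95% interval -0.43 to 0.30, adjusted p = 0.904). With only these groups fitted, the 5p difference was 0.02 with a smaller SE of 0.21. Again 0% of miRNAs were called by edgeR, with 117 at an unadjusted p under 0.05, and DESeq2 called 13.

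In K562, USB1 KO cells had lower values of both arms than control, which did not pass the test. The labels name no edited K562 line that keeps USB1. Knockout, editing and single-cell expansion therefore cannot be told apart, here or under PARN knockdown and in the interaction. The log2 change of miR-135b-5p was -0.34 (SE 0.20, 95% interval -0.78 to 0.10, adjusted p = 0.387, edgeR), and that of miR-135b-3p was -0.55 (SE 0.29, 95% interval -1.17 to 0.08, adjusted p = 0.341). All knockout libraries lay below all control libraries for both arms, which 15.8% of the 881 miRNAs fitted did as well, while edgeR called 5.11% in either direction. With control library 3 as the only control the changes were -0.54 and -0.97. Sums over marker lists differed here too. The neural list took 12236 to 16494 CPM of the library total in control and 20977 to 22483 in USB1 KO. For the fibroblast list the ranges were 1472 to 1850 and 1360 to 6145, and for the blood list 9088 to 11620 and 8690 to 11068, both overlapping. The part of these lists in the values of miR-135b was not tested.

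PARN knockdown in control cells raised both arms. miR-135b-5p rose by 1.15 on the log2 scale (SE 0.21, adjusted p = 0.0132, edgeR), or 2.22-fold, from 111 ± 13.5 to 246 ± 58.2 CPM. miR-135b-3p rose by 1.26 (SE 0.27, adjusted p = 0.0360), or 2.40-fold, from 4.97 ± 1.41 to 11.96 ± 1.76 CPM. edgeR called 1.25% of the 881 miRNAs as higher, 11 in all, and both arms of miR-135b were among them. Every knockdown library lay above every control library for both arms, against 11.1% of all miRNAs. The call of the 5p arm was lost without control library 1 (adjusted p = 0.0932) or 2 (0.0645). That of the 3p arm was lost without control library 1 (0.144) or 2 (0.201), without control shPARN library 1 (0.156) or 2 (0.0877), and with library totals (0.0542). With control library 3 as the only control the changes were 0.96 (adjusted p = 0.646) and 0.86 (0.807), in a fit that called 0 miRNAs. Sums over the marker lists differed in this comparison. The fibroblast list (7 of 7 listed) took 1472 to 1850 CPM of the library total in control and 660 to 728 in control shPARN, the blood list 9088 to 11620 and 7562 to 8002, and the neural list 12236 to 16494 and 19108 to 31459, none of them overlapping. Such a sum follows its most abundant members, such as miR-7-5p in the neural list, at a mean of 16495 CPM in K562. Of the members fitted, 0 of 9 neural, 0 of 6 fibroblast and 1 of 7 blood miRNAs were called. Log2 changes were above 0 for 7, 2 and 1 of them. The part of these lists in the rise of miR-135b was not tested.

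The same knockdown in USB1 KO cells gave different values for the 2 arms. miR-135b-5p changed by -0.07 (SE 0.20, 95% interval -0.51 to 0.37, adjusted p = 0.840, edgeR), from 87.5 ± 12.5 to 83.5 ± 14.5 CPM. miR-135b-3p rose by 1.03 (SE 0.29, adjusted p = 0.0343), or 2.04-fold, from 3.34 ± 0.38 to 6.95 ± 1.60 CPM. Here edgeR called 9.08% of miRNAs as higher, and 17.4% had every knockdown library above every knockout library, as miR-135b-3p did. Its call was lost with library totals (adjusted p = 0.0775), with only the 2 groups fitted (0.0966), and without any 1 of the 6 libraries (0.0609 to 0.119) other than USB1 KO shPARN library 3. The fibroblast list reached 6145 CPM of the library total in 1 USB1 KO library and 12774 in 1 USB1 KO shPARN library, against medians of 1671 and 1383 in these groups, and the neural list took 20977 to 22483 and 27411 to 43536. Their part in these changes was not tested.

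The interaction of the 2 factors asks whether PARN knockdown acted differently in the 2 backgrounds. For miR-135b-5p it was -1.22 on the log2 scale (SE 0.29, 95% interval -1.84 to -0.60, adjusted p = 0.04997, edgeR). The fold change was thus 2.33-fold lower in USB1 KO cells, where the log2 change was -0.07, than in control cells. edgeR called 0.454% of the 881 miRNAs in this direction, 4 in all. The call stood at the edge of the threshold: the adjusted p was 0.0529 with RLE size factors, 0.0501 with library totals, 0.0502 with a filter of 10 CPM in 3 libraries and 0.00527 with DESeq2. Leaving out 1 library gave values from -1.37 to -1.04 and lost the call (adjusted p up to 0.163) except without USB1 KO library 3 or USB1 KO shPARN library 3, and with control library 3 as the only control it was -1.04 (adjusted p = 0.494). For miR-135b-3p the interaction was -0.23 (SE 0.40, 95% interval -1.09 to 0.62, adjusted p = 0.804), and 0.15 (adjusted p = 0.939) with control library 3 as the only control. Whether the 2 arms differ in their interaction was not tested.

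Under PARN knockdown, USB1 KO cells held less miR-135b-5p than control cells. The difference was -1.56 (SE 0.21, adjusted p = 0.000822, edgeR), or 2.94-fold lower, and it was called under all 15 alternatives tried, between -1.69 and -1.36. edgeR called 4.2% of miRNAs as lower and 4.99% as higher. For miR-135b-3p it was -0.78 (SE 0.27, adjusted p = 0.0901), and DESeq2 called it (-0.81, adjusted p = 0.0368). All libraries of USB1 KO shPARN lay below all of control shPARN for both arms, as for 14.1% of miRNAs. Against control cells without the knockdown, USB1 KO shPARN differed by -0.41 (SE 0.20, adjusted p = 0.203) for the 5p arm and by 0.48 (SE 0.28, adjusted p = 0.262) for the 3p arm. Neither was among the 14.1% of miRNAs called there, although library totals gave -0.60 (adjusted p = 0.0464) for the 5p arm. With control library 3 as the only control these differences were -0.63 (adjusted p = 0.308) and 0.05 (0.971).

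**Figure D2:**
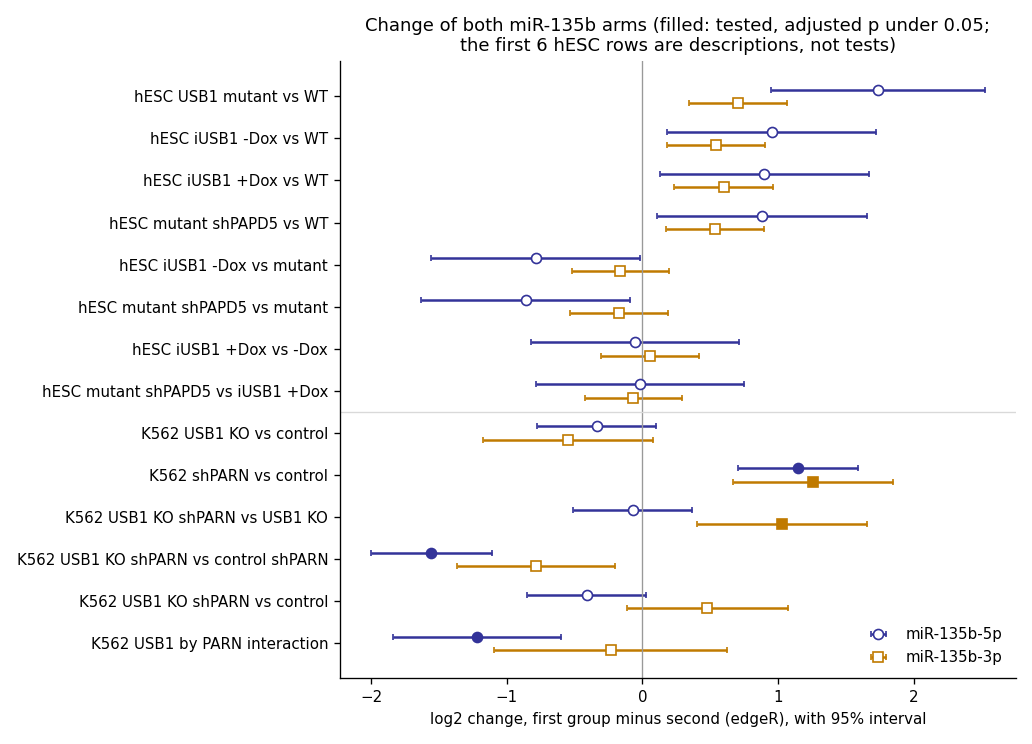
Log2 change of miR-135b-5p (circles) and miR-135b-3p (squares) in each comparison, first group minus second, with 95% intervals from edgeR; filled symbols passed an adjusted p of 0.05, and the first 6 hESC comparisons are descriptions that were not tested. The arms part in USB1 KO shPARN vs USB1 KO, where the 3p arm stands at 1.03 and the 5p arm at -0.07.

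**Figure D3:**
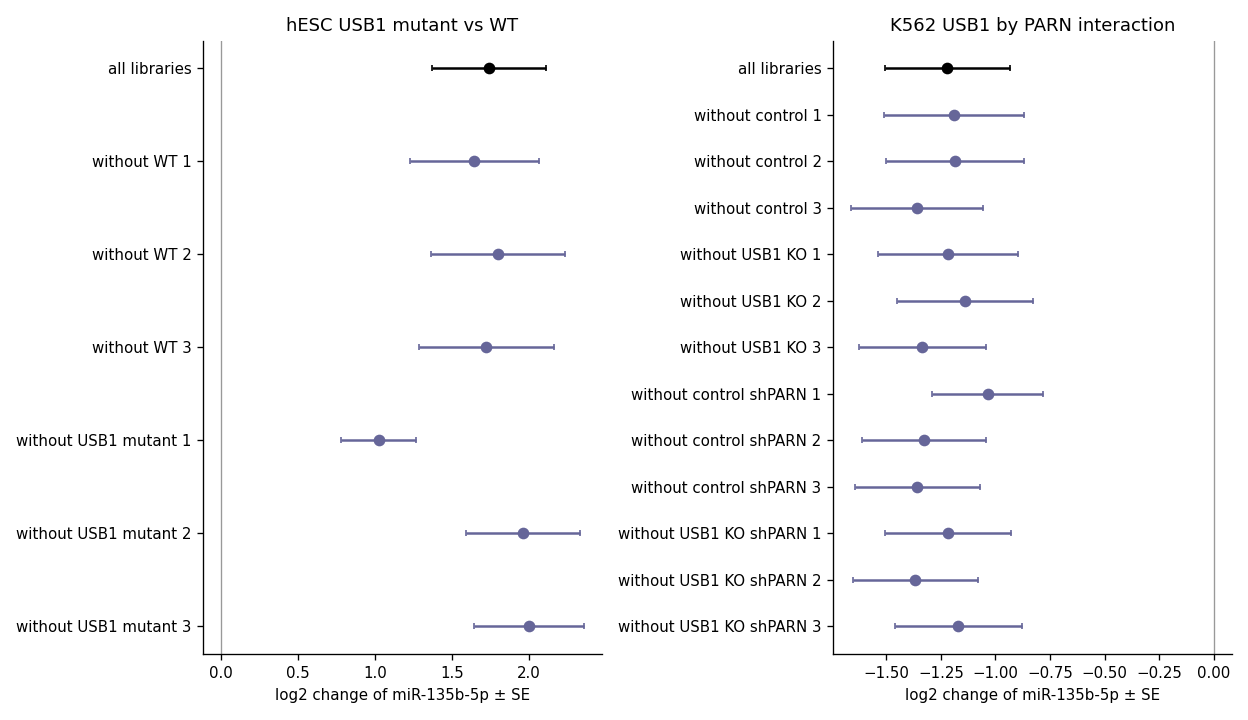
Log2 change of miR-135b-5p ± SE with all libraries (black) and without each library in turn, for USB1 mutant vs WT in hESCs (left, a description) and for the USB1 by PARN interaction in K562 (right). The hESC value falls from 1.74 to 1.02 without mutant library 1, and the interaction stays between -1.37 and -1.04.

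The 5p arm made up most miR-135b counts in every library, 87.1 to 96.2% in hESCs and 91.9 to 96.4% in K562. Shares are of counts of mature arms of 23 and 22 bases, and their Wilson 95% intervals cover counting error only. In WT hESCs the share was 87.1, 89.9 and 88.6%. USB1 mutant library 1 had 96.2% (95% interval 95.9 to 96.4%), apart from the 91.3 and 91.1% of the other mutant libraries. In K562 the share was 96.2, 96.0 and 95.04% in control and 96.3, 96.4 and 96.2% in USB1 KO. It was 95.7, 95.05 and 95.1% in control shPARN. USB1 KO shPARN libraries had 93.0, 91.9 and 92.2%, below every other K562 library. None of the 3 comparisons of shares that were tested could pass, since a two-sided exact permutation test of 3 against 3 cannot go below 0.1. Knockout differed from control by 0.56 percentage points (exact p = 0.2), control shPARN from control by -0.46 (exact p = 0.4) and +Dox from -Dox by -0.50 (exact p = 0.7), with adjusted p of 0.6, 0.6 and 0.7 over these 3.

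**Figure D4:**
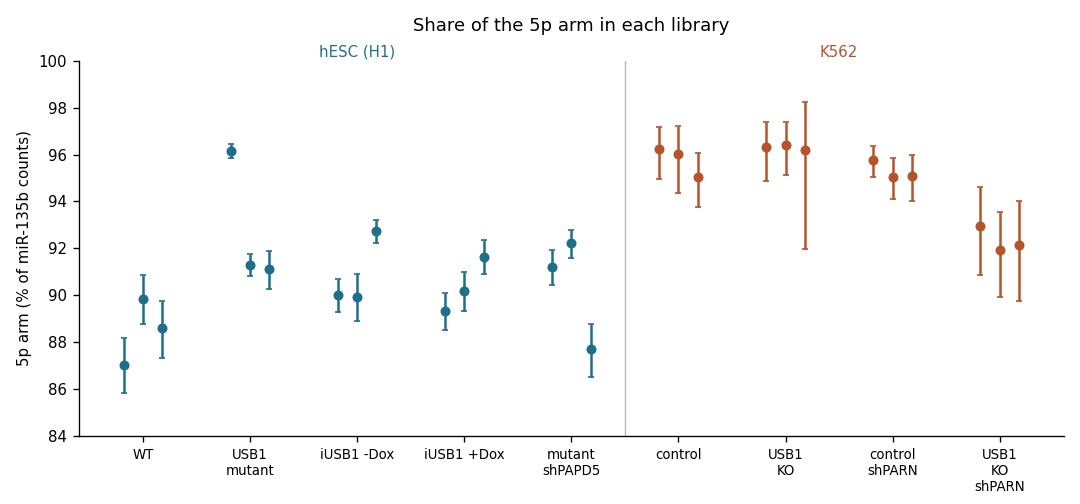
Share of the 5p arm among miR-135b counts in each library, in percent, with Wilson 95% intervals; the axis starts at 84%. USB1 mutant library 1 stands at 96.2% above the other hESC libraries, and the 3 USB1 KO shPARN libraries at 91.9 to 93.0% below the other K562 libraries.

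miR-135a-5p, the strand with the same seed, was abundant in hESCs and scarce in K562. It reached 33.0 to 62.4 counts per 100 counts of miR-135b-5p in hESCs and 1.52 to 15.8 in K562. WT libraries averaged 91.6 ± 3.73 CPM and USB1 mutant libraries 195 ± 119.8 CPM, a log2 difference of 1.09 (SE 0.35), or 0.45 without mutant library 1. Its ratio to miR-135b-5p was highest in WT, at 62.4, 49.7 and 50.5 per 100, and 33.0 to 47.7 elsewhere in hESCs.

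In K562 miR-135a-5p had 15 to 90 counts a library. It rose in USB1 KO by 1.68 (SE 0.41, adjusted p = 0.0301, edgeR), from 2.97 ± 1.33 to 9.66 ± 1.73 CPM, where 1.93% of miRNAs were called as higher. The call was lost without any 1 library of the 2 groups other than control library 3 (adjusted p = 0.0744 to 0.121), and with control library 3 as the only control (1.16, adjusted p = 0.561). PARN knockdown in USB1 KO cells lowered it again (log2 change -1.58, SE 0.41, adjusted p = 0.0276), where 5.68% were called as lower. That call was lost with only the 2 groups fitted (adjusted p = 0.0513) and without any 1 of the 6 libraries (0.0540 to 0.0847) other than USB1 KO shPARN library 3. In control cells PARN knockdown gave 0.67 (SE 0.41, adjusted p = 0.572). USB1 KO shPARN against control shPARN gave -0.57 (SE 0.41, adjusted p = 0.396), and the interaction was -2.25 (SE 0.58, adjusted p = 0.0710), both of the same sign as for miR-135b-5p. DESeq2 called that interaction (-2.31, adjusted p = 0.0110), and edgeR did so without USB1 KO shPARN library 3 (-2.59, adjusted p = 0.0349). The other 16 of 18 alternatives did not call it, and values over all 18 ran from -2.65 to -1.76. Adding miR-135a-5p counts to those of miR-135b-5p left every K562 call of the 5p arm in place.

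The 3p strands of miR-135a did not follow miR-135b in hESCs. WT cells held 84.1 ± 19.5 CPM of miR-135a-2-3p and mutant cells 64.7 ± 23.004 CPM (n = 3). Levels of miR-135a-3p were 8.01 ± 2.42 and 4.75 ± 1.82 CPM, both with overlapping libraries. Across the 15 hESC libraries, after the mean of each group was subtracted, log2 CPM of miR-135b-5p correlated with miR-135a-5p at r = 0.95, with its own 3p arm at 0.71, with miR-135a-3p at -0.75 and with miR-135a-2-3p at -0.77. Over the 12 hESC libraries outside the mutant group the 4 values were 0.89, 0.64, -0.55 and -0.47. In the 12 K562 libraries they were 0.30 for miR-135a-5p, 0.87 for the 3p arm and 0.50 for miR-135a-3p, the last of opposite sign to hESCs. miR-135a-2-3p was not fitted in K562. These points share libraries and depth, and are a description.

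**Figure D5:**
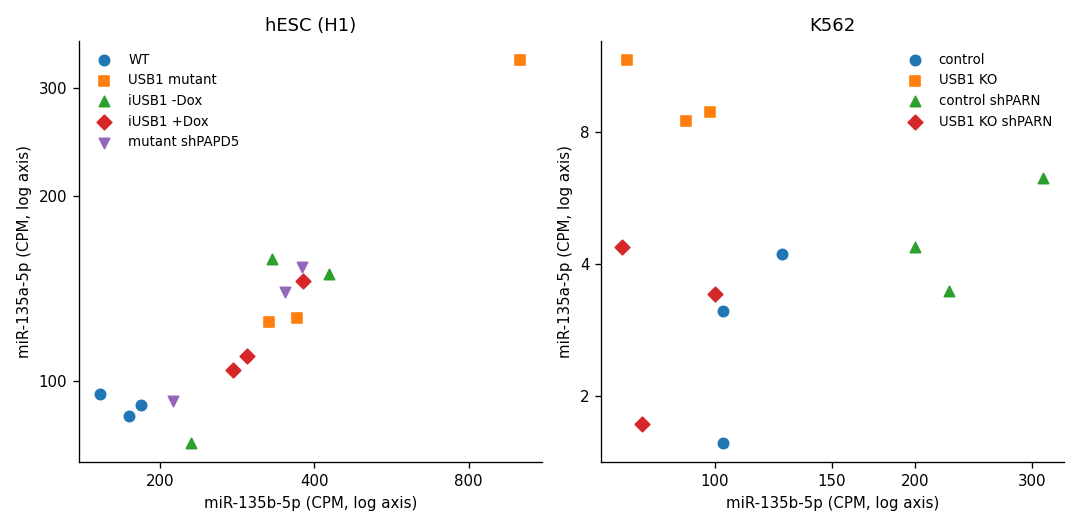
miR-135a-5p against miR-135b-5p in each library, CPM on log axes, for hESCs (left) and K562 (right), with symbols by group. In hESCs the 2 strands lie along one line, with mutant library 1 at the upper end; in K562 the 3 USB1 KO libraries have the most miR-135a-5p without more miR-135b-5p.

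The miRNAs most like miR-135b-5p were found by Pearson's r of log2 CPM over the libraries of a line, as a description. Of 997 compared in hESCs, the first 5 were miR-302a-3p (r = 0.96), miR-302c-3p (0.95), miR-1277-5p (0.94), miR-19a-3p (0.94) and miR-19b-1-5p (0.94), and miR-135a-5p came sixth (0.94). Of these, miR-1277-5p and miR-19b-1-5p were scarce, at means of 1.28 and 3.31 CPM, and ranked 18 and 16 by Spearman's rho. miR-302a-3p and miR-302c-3p are abundant stem cell miRNAs and were also highest in mutant library 1, at 58069 and 76065 CPM of the library total against 20292 to 30618 in the other mutant libraries. Without that library the 5 values were 0.88 to 0.95 over 14 libraries. In K562, of 880 compared, they were miR-452-3p (0.97), miR-452-5p (0.96), miR-224-5p (0.90), miR-139-5p (0.88) and miR-625-3p (0.87), and 0.65 to 0.89 over the 9 libraries without control shPARN. By Spearman's rho 3 of the 5 in hESCs and 2 of the 5 in K562 were again among the first 5. No miRNA was among the first 5 in both lines.

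Since miR-135b is tied to APC, a list of 11 miRNAs described as acting on APC or beta-catenin was read beside it, of which 9 were fitted in hESCs and 7 in K562. Their median log2 difference between mutant and WT was -0.18, against 0.04 over all miRNAs, and -0.06 against 0.01 for +Dox vs -Dox. There and for mutant shPAPD5 vs iUSB1 +Dox 0 of 9 were called, as were 0% of all miRNAs. In K562 USB1 KO 1 of 7 rose, against 1.93% of all miRNAs. It was miR-135a-5p, as given above. PARN knockdown in control K562 cells gave a median of 0.16 against -0.03, with 0 of 7 called, against 13 of all 881 miRNAs. In USB1 KO cells 1 rose, against 9.08% of all miRNAs, 1 fell, against 5.68%, and 5 were not called. The former was miR-27a-3p (0.68, SE 0.17, adjusted p = 0.0207, edgeR) and the latter miR-135a-5p. The call of miR-27a-3p was lost with library totals (adjusted p = 0.163), with only the 2 groups fitted (0.0932), and without USB1 KO library 1 or 2 or USB1 KO shPARN library 3 (0.0562 to 0.0662). USB1 KO shPARN vs control shPARN called 0 of 7, against 4.99% of all miRNAs as higher and 4.2% as lower. The interaction called 0 of 7, against 1.82% in either direction. Whether the list differs from all miRNAs was not tested.

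A list of 17 neural miRNAs was read as well, of which 14 were fitted in hESCs and 9 in K562. It had a median of -0.17 between mutant and WT and -0.12 for +Dox vs -Dox. In the latter and for mutant shPAPD5 vs iUSB1 +Dox 0 of 14 were called, as were 0% of all miRNAs. Between mutant and WT, 5 of the 14 had a log2 difference above 0. The 4 of highest level were miR-7-5p (0.40, SE 0.22), miR-128-3p (0.23, SE 0.21), miR-9-5p (-0.93, SE 0.24) and miR-218-5p (0.46, SE 0.32). Of these 4, only miR-9-5p, a strand that promotes neuronal differentiation, differed in the direction opposite to miR-135b-5p. In K562 USB1 KO 3 of 9 rose, against 1.93% of all miRNAs, and none fell. Among them were miR-9-5p by 2.06 (SE 0.22, adjusted p = 0.000153, edgeR) and miR-218-5p by 0.73 (SE 0.15, adjusted p = 0.0121), whose call was lost without control library 1 (0.68, adjusted p = 0.0637) or USB1 KO library 2 (0.70, 0.0580), and with control library 3 as the only control (0.71, 0.304), at log2 changes close to 0.73. PARN knockdown in control cells called 0 of 9, against 13 of all 881 miRNAs, with a median of 0.39. In USB1 KO cells it raised 4 of 9, against 9.08% of all miRNAs, and lowered 1, against 5.68%. miR-7-5p rose by 1.24 (SE 0.36, adjusted p = 0.0438), miR-128-3p rose by 0.75 (SE 0.18, adjusted p = 0.0207), and miR-9-5p fell by 0.71 (SE 0.22, adjusted p = 0.0457). That of miR-7-5p was lost with library totals (0.0761), RLE size factors (0.0517) or no filter on low counts (0.0576), and without any 1 of the 6 libraries (0.0965 to 0.170) other than USB1 KO shPARN library 3. That of miR-128-3p was lost with only the 2 groups fitted (0.0910) and without USB1 KO shPARN library 1 (0.0804) or 2 (0.0517). That of miR-9-5p was lost with only the 2 groups fitted (0.0966) and without any 1 of the 6 libraries (0.0551 to 0.205) other than USB1 KO library 3. Under PARN knockdown, USB1 KO cells held more miR-9-5p (1.53, SE 0.22, adjusted p = 0.00126) and more miR-218-5p (1.15, SE 0.15, adjusted p = 0.000822) than control cells, where miR-135b-5p was lower. There 4 of 9 were higher, against 4.99% of all miRNAs, and none was lower. The interaction called 0 of 9, against 1.82% of all miRNAs in either direction.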

How the data were processed

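Small RNA of H1 and K562 cells was sequenced after Trizol lysis and a Lexogen small RNA kit, in 27 libraries with 0 columns left out. The authors deposited unnormalised counts of reads for each mature arm; cutadapt 2.5, Bowtie2 2.2.9, SAMtools 1.3.1 and DESeq2 stand in the submitters' processing notes. Every table leaves out miRNAs whose count in its first column is below 1, so what an unlisted miRNA had in the other columns is unknown. Rows of adaptor sequence, at most 0.206% of a library, were left out. Columns of the K562 control table carry no replicate number of their own and are numbered in table order.

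miRNAs listed in every table of a line (1251 in hESCs, 1080 in K562) were filtered with filterByExpr (minimum count 10, minimum total 15), leaving 998 and 881. Each line was fitted once with edgeR 4.0.16 (quasi-likelihood, TMM, robust) in R 4.3.3, with Benjamini-Hochberg adjustment within a comparison, a threshold of 0.05 and SE and 95% intervals from the fit. The code was tested on simulated data. DESeq2 1.42.0 was an alternative. Levels are means ± SD of CPM, and correlations used log2(CPM + 0.5).

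Members, lists and tests were chosen with earlier results of these data known, so that p-values in K562 are not independent support either. Of 16 comparisons, the 8 that hold WT or USB1 mutant hESC libraries were described, although tests had been planned for them. Other miRNAs were named by rule: the miR-135 family, the 5 most like miR-135b-5p by r in each line, up to 6 with hairpins within 10 Mb of MIR135B, and up to 4 of highest level from the neural and APC or beta-catenin lists. Sequences and positions come from RefSeq (GRCh38.p14) and GENCODE v44. Alternatives were another scaling (RLE, library totals), filter, tool, set of groups and treatment of unlisted miRNAs, a replicate block, summed miR-135a-5p and miR-135b-5p, and each library left out; 2 were added after the data were seen. No replicate pair agreed within sampling noise (chi-squared over degrees of freedom 12.01 or more).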

Additional observations from a re-analysis of the deposited data

Results flagged for a closer look

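The response of miR-135b-5p to PARN knockdown in K562 differed between backgrounds by a tested interaction of -1.22 on the log2 scale (edgeR, adjusted p = 0.04997). The adjusted p was 0.00527 with DESeq2 and up to 0.163 by edgeR without 1 library. With control library 3 as the only control the value was -1.04. All 3 control shPARN libraries lay above the control, as for 11.1% of the 881 miRNAs fitted, while USB1 KO shPARN libraries overlapped USB1 KO.

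The arms also lay on opposite sides of their controls after loss of USB1 in the 2 lines, with every mutant hESC library above WT and every K562 knockout library below control. The former held for 14.3% of the 998 miRNAs fitted in hESCs, and the latter for 15.8% of the 881 in K562. The K562 effect minus the hESC effect was -2.17 for miR-135b-5p (SE 0.50) and -1.33 for miR-135b-3p (SE 0.38). This difference was not tested here, because the hESC contrast was the one that drew attention to miR-135b, and the K562 change did not pass its own test.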

How the results depend on the processing

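Of 236 alternative values of tested results, 192 kept their direction and their side of the threshold and 44 did not. Of 242 of described results 223 moved by less than the spread between replicates. Calls of the 5p arm held in 15 of 15 alternatives for USB1 KO shPARN vs control shPARN, 12 of 15 for shPARN vs control and 6 of 20 for the interaction. Those of the 3p arm held in 7 of 13 for shPARN vs control and 6 of 13 for USB1 KO shPARN vs USB1 KO. Of the 44, most crossed the threshold, and 12 changed sign, in results that passed the test neither as reported nor in that alternative. Among these 12, mutant shPAPD5 vs iUSB1 +Dox was 0.084 for the 5p arm with library totals, 0.017 with miR-135a-5p added and 0.022 with only the groups compared, and 0.020 for the 3p arm with library totals. The 3p interaction was 0.15 without K562 control libraries 1 and 2. Library totals in place of TMM gave, for miR-135b-3p, -0.012 in mutant shPAPD5 vs mutant, 0.63 in mutant shPAPD5 vs WT, 1.02 in shPARN vs control and 0.81 in USB1 KO shPARN vs USB1 KO, and for miR-135b-5p -0.60 in USB1 KO shPARN vs control and -1.22 in the interaction, which was -1.27 with RLE size factors and -1.27 with a filter of 10 CPM. That filter left miR-135b-3p out of K562. With only the groups compared, USB1 KO shPARN vs USB1 KO was 0.99 for miR-135b-3p, and DESeq2 gave -0.81 for it in USB1 KO shPARN vs control shPARN. Without K562 control libraries 1 and 2 together, shPARN vs control was 0.96 and 0.86 for the 5p and 3p arm, the interaction of the 5p arm -1.04 and the effect of USB1 loss in K562 minus hESCs -1.77 for the 3p arm. Between the lines, the 5p difference was 1.86 with RLE, 0.52 with totals, 1.86 with DESeq2, 2.13 with miR-135a-5p added and 1.29 without those control libraries. The 3p difference was 3.38, 2.05, 3.38 and 2.59 under RLE, totals, DESeq2 and the removal of those libraries. The cause of these shifts was not tested.

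Without 1 library, miR-135b-5p ranged from 1.02 to 1.999 in mutant vs WT, -1.11 to -0.13 in mutant shPAPD5 vs mutant, -1.04 to -0.069 in iUSB1 -Dox vs mutant, -0.26 to 0.15 in +Dox vs -Dox, -0.16 to 0.22 in mutant shPAPD5 vs iUSB1 +Dox, -0.23 to 0.017 in USB1 KO shPARN vs USB1 KO, 0.93 to 1.27 in shPARN vs control, -1.37 to -1.04 in the interaction and -2.35 to -1.32 in the effect of USB1 loss between lines. miR-135b-3p ranged from -0.078 to 0.15 in +Dox vs -Dox, -0.13 to 0.0019 in mutant shPAPD5 vs iUSB1 +Dox, 1.14 to 1.54 in shPARN vs control, 0.82 to 1.09 in USB1 KO shPARN vs USB1 KO, 2.90 to 3.34 between WT and control and -1.48 to -1.06 in the effect of USB1 loss.

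Counts of called miRNAs moved further. USB1 mutant vs WT called 74 (0 with only these groups, 38 to 87 without 1 library), USB1 KO vs control 45 (8 without control libraries 1 and 2, 16 to 34 without 1 library) and shPARN vs control 13 (25 with library totals, 21 with the 10 CPM filter, 21 with unlisted miRNAs as 0, 36 with DESeq2, 27 with only these groups, 0 without control libraries 1 and 2, 1 to 25 without 1 library). USB1 KO shPARN called 130 against USB1 KO (50 with only these groups, 38 to 139 without 1 library), 81 against control shPARN (129 with DESeq2, 49 with only these groups, 38 to 92 without 1 library) and 124 against control (14 without control libraries 1 and 2, 73 to 112 without 1 library). The interaction called 16 (7 with RLE, 7 with library totals, 1 with the 10 CPM filter, 37 with DESeq2, 0 without control libraries 1 and 2, 0 to 27 without 1 library). With only these groups, +Dox vs -Dox called 3 and mutant shPAPD5 vs iUSB1 +Dox 34, against 0 as reported.

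With the replicate number as a block, miR-135b-5p was at 1.65 in mutant vs WT, -0.04 in +Dox vs -Dox and -1.56 in USB1 KO shPARN vs control shPARN (adjusted p = 0.0018), and no call of either arm changed. The numbers are not labelled as a shared batch, and same-numbered hESC libraries deviated together in 10 of 30 pairs (r over 0.1), with 7 of 15 libraries closest to their own number. K562 control libraries could not enter a block.

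Depth limits miR-135b-3p in K562 most, with 6 counts in USB1 KO library 3 against 1169 at most in hESCs. Counts cannot show whether reads of miR-135a-5p and miR-135b-5p were exchanged, and no comparison tests tails or precursors. Each group held 3 libraries, and several calls were lost without 1 of them.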

Other observations

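Of 21 mature miRNAs with hairpins within 10 Mb of MIR135B on chromosome 1, 8 were fitted in each line. In hESCs the one with the highest level was miR-205-5p, an epithelial miRNA, at 127 CPM. It differed by -0.07 (SE 0.37) between mutant and WT, and the list had a median of -0.01 against 0.04 over all miRNAs. In K562, miR-29c-5p (112 CPM), miR-29b-3p (62.3 CPM), miR-181b-5p (35.8 CPM) and miR-181a-5p (26.1 CPM) led. PARN knockdown in control cells called 0 of the 8, against 13 of all 881 miRNAs, with a median of 0.30 against -0.03. Under PARN knockdown, USB1 KO cells held more miR-181b-5p (0.91, SE 0.16, adjusted p = 0.00340, edgeR) and miR-181a-5p (1.009, SE 0.21, adjusted p = 0.0107) than control cells, in the opposite direction to miR-135b-5p. These were the 2 of 8 called as higher, against 4.99% of all miRNAs, and 0 were called as lower. Only 4 of the 8 had a log2 difference above 0, and miR-29c-5p and miR-29b-3p stood at -0.0045 (SE 0.18) and -0.24 (SE 0.20). The call of miR-181a-5p was lost without control shPARN library 2 (0.0574) or USB1 KO shPARN library 1 (0.0568). USB1 KO against control and USB1 KO shPARN against USB1 KO each called 1 of 8 as higher, against 1.93% and 9.08% of all miRNAs. It was miR-181b-5p in both (0.70 and 0.63, adjusted p = 0.0216 and 0.0236, edgeR). The first call was lost without control library 1 or 2 or USB1 KO library 1 or 2 (0.0864 to 0.123, log2 changes 0.65 to 0.72) and with control library 3 as the only control (0.52, adjusted p = 0.626). The second was lost with library totals (0.37, adjusted p = 0.189), with only the 2 groups fitted (0.58, 0.0872), with the replicate block (0.57, 0.0726), and without USB1 KO or USB1 KO shPARN library 1 or 2 (0.58 to 0.66, adjusted p = 0.0771 to 0.0965). miR-29b-3p, miR-181a-5p and miR-181b-5p can also come from hairpins elsewhere in the genome, which counts of mature strands cannot tell apart.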
